A study of Gallus gallus with 40 samples.

Results

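Amino acid transporter genes of the solute carrier (SLC) superfamily were examined in the chorioallantoic membrane of the chicken embryo. The genes were those whose name in the annotation begins with SLC1A, SLC3A, SLC6A, SLC7A, SLC36A, SLC38A or SLC43A followed by a digit, with SLC1A1 left out by the rule. This gave 45 of the 26152 gene models in the deposited table. Of these, 44 encode carriers or carrier subunits. The remaining gene, SLC7A6OS, matches by name only: it is called after its position beside SLC7A6 and is not a carrier. The same families also hold carriers of GABA, monoamines and taurine (in SLC6), which the rule includes. SLC3A2, SLC1A5, SLC7A6, SLC7A7, SLC7A8, SLC43A1, SLC6A8 and SLC6A14 were not analysed here.

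The membranes came from Ross 308 broiler embryos, a fast-growing meat line, in 4 groups of 10 libraries: day 15 males, day 15 females, day 11 males and day 11 females. The labels name no treatment and no step that separated cell types, and the membranes were frozen after a rinse, so a library can hold any of the membrane's cell types. The sex of each embryo was determined by a molecular test on neck tissue. Each library carries its own number in the labels, taken here as the embryo, and no number occurs in 2 groups. Day 11 libraries carry numbers from 2 to 48, and day 15 libraries higher ones. The day 11 libraries were divided here into those numbered 2 to 20 (9 libraries) and 22 to 48 (11 libraries), a cut that the labels do not mark. Differences between these ranges are described and were not tested. What the numbers stand for is not stated in the labels.

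The chorioallantoic membrane lies under the eggshell and serves the embryo as a respiratory organ, takes up calcium from the shell and reabsorbs water and ions from the allantoic fluid. Amino acids cross cell membranes on carriers that differ in their driving force. SLC1, SLC6 and SLC38 carriers mostly use the sodium gradient, SLC36 carriers mostly use protons, SLC43 carriers are facilitators, and the SLC7 light chains exchange one amino acid for another and need an SLC3 heavy chain to reach the cell surface. The cationic carriers of SLC7 take up arginine and lysine and work without a heavy chain. Roles given below are those described in human, mouse or rat unless stated otherwise.

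Expression was measured by mRNA sequencing and is given in FPKM, fragment counts set relative to transcript length and library size, so levels can be set side by side between genes. The depth implied by the values was 28.3 to 49.2 M reads per library. Fold changes are day 15 over day 11, or male over female, on the scale log2(scaled FPKM + 0.1), on which low levels change by less than in FPKM itself, and the value after ± is the standard error. A gene is called when its p-value from limma, adjusted by the Benjamini-Hochberg method over all 15880 genes tested, is below 0.05. The membrane epithelium markers were all higher at day 15 (7 of 7 called). Their summed level was 3593 to 6040 FPKM in day 15 males and 3720 to 5954 FPKM in day 15 females, against 2136 to 2869 FPKM in day 11 males and 2126 to 2490 FPKM in day 11 females. All 5 smooth muscle markers were also higher at day 15, whereas 5 of 6 leukocyte markers were lower. Over all genes tested, 30.3% were called higher and 29.8% lower at day 15. In whole membranes, fewer cells of a type and less RNA per cell cannot be told apart. The part of these shifts in the results below was not tested.

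Of the 45 genes, 25 reached 0.5 FPKM in every library, and 31 passed the filter for testing, which asked for 0.5 FPKM in at least 10 libraries. The gene just inside this filter was SLC7A9, with 15 libraries at or above 0.5 FPKM, and the gene just outside was SLC6A7, with 5. Levels spanned more than 4 orders of magnitude, as the plot of levels by day shows. The sum over the 45 genes had a median of 514 FPKM in day 15 males, 528 FPKM in day 15 females, 499.9 FPKM in day 11 males and 514 FPKM in day 11 females. The total was therefore close to equal between the days, while single genes moved in both directions.

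**Figure D1:**
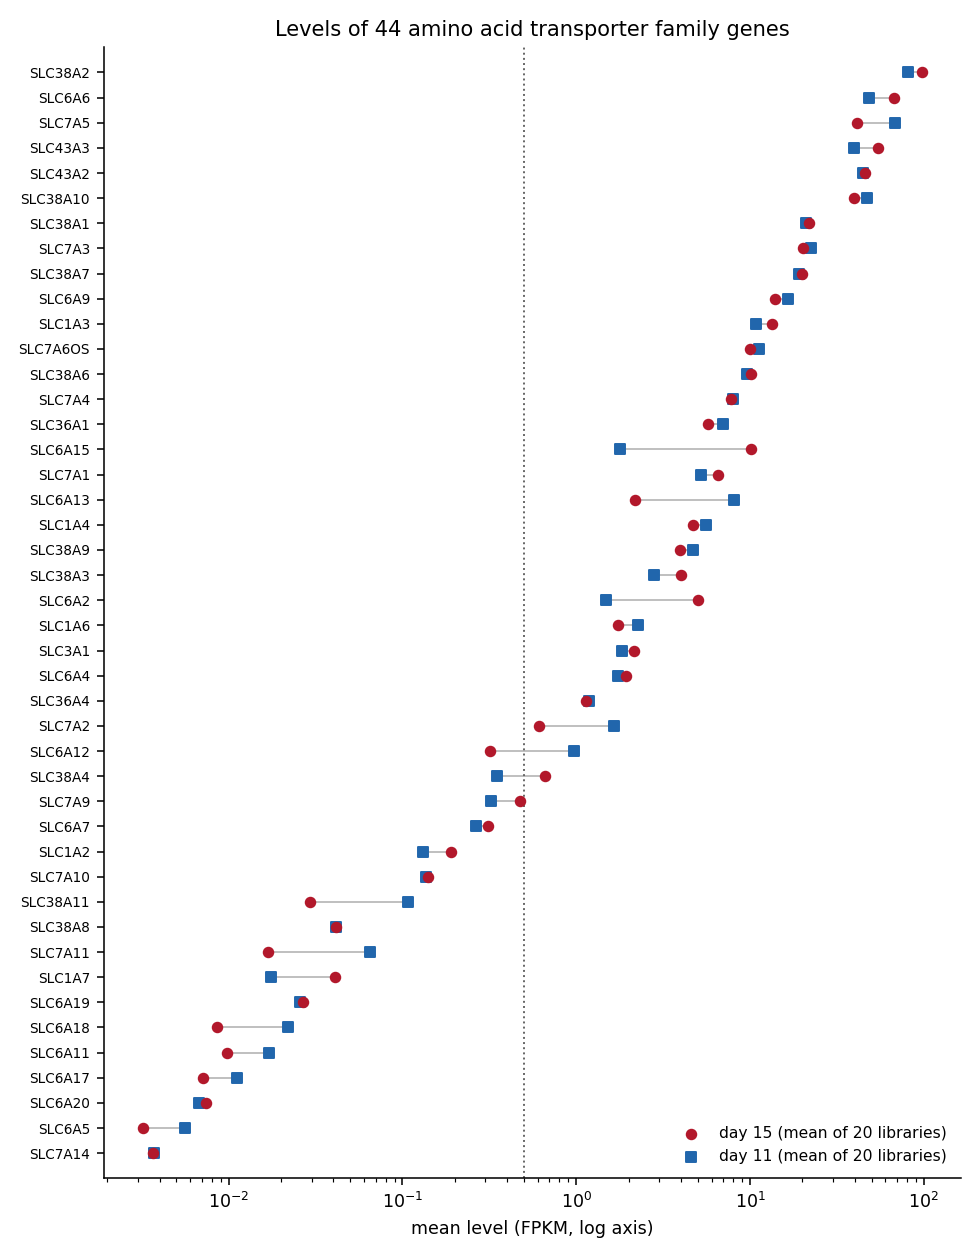
Mean level of 44 of the 45 genes at day 15 (circles) and day 11 (squares), 20 libraries each, in FPKM on a log axis, ordered by the mean over all 40 libraries. The dotted line marks 0.5 FPKM. SLC38A2 lies at the top with 97.7 FPKM at day 15 and 81.3 FPKM at day 11, and the widest gaps among the tested genes are those of SLC6A15, SLC6A13, SLC6A2, SLC6A12 and SLC7A2.

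Between the days, 21 of the 31 tested genes were called when the sexes were averaged, 10 of them higher and 11 lower at day 15. That is 67.7% of the tested genes, beside 60.1% of all genes tested (30.3% higher and 29.8% lower), so the count itself does not set these genes apart from the rest of the transcriptome. The median log2 fold change was 0.06, beside 0.01 for all genes. The median size of the change without regard to sign was 0.28, beside 0.24 for all genes. Within males 16 of 31 were called (9 higher and 7 lower, beside 47.7% of all genes, 24% higher and 23.7% lower), and within females 15 of 31 (8 higher and 7 lower, beside 45.7% of all genes, 22.9% higher and 22.8% lower). A change that was both called and at least 2-fold was seen in 5 of them: SLC6A15 and SLC6A2 were higher at day 15, and SLC6A13, SLC6A12 and SLC7A2 were lower. Over all genes 8.48% met that rule. After scaling, the libraries of the days did not overlap at all for 3 of the 31 in males (SLC6A15, SLC6A2 and SLC6A13; beside 11.0% of all genes), for 4 in females (SLC6A2, SLC6A13, SLC6A12 and SLC7A2; 8.95%) and for 2 in both sexes (SLC6A2 and SLC6A13; 6.18%). No interaction of sex and day was called (0 of 31, beside 0.0252% of all genes), with 0 of 31 at an unadjusted p below 0.05, and every one of the 31 had an adjusted p of 0.9999.

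**Figure D2:**
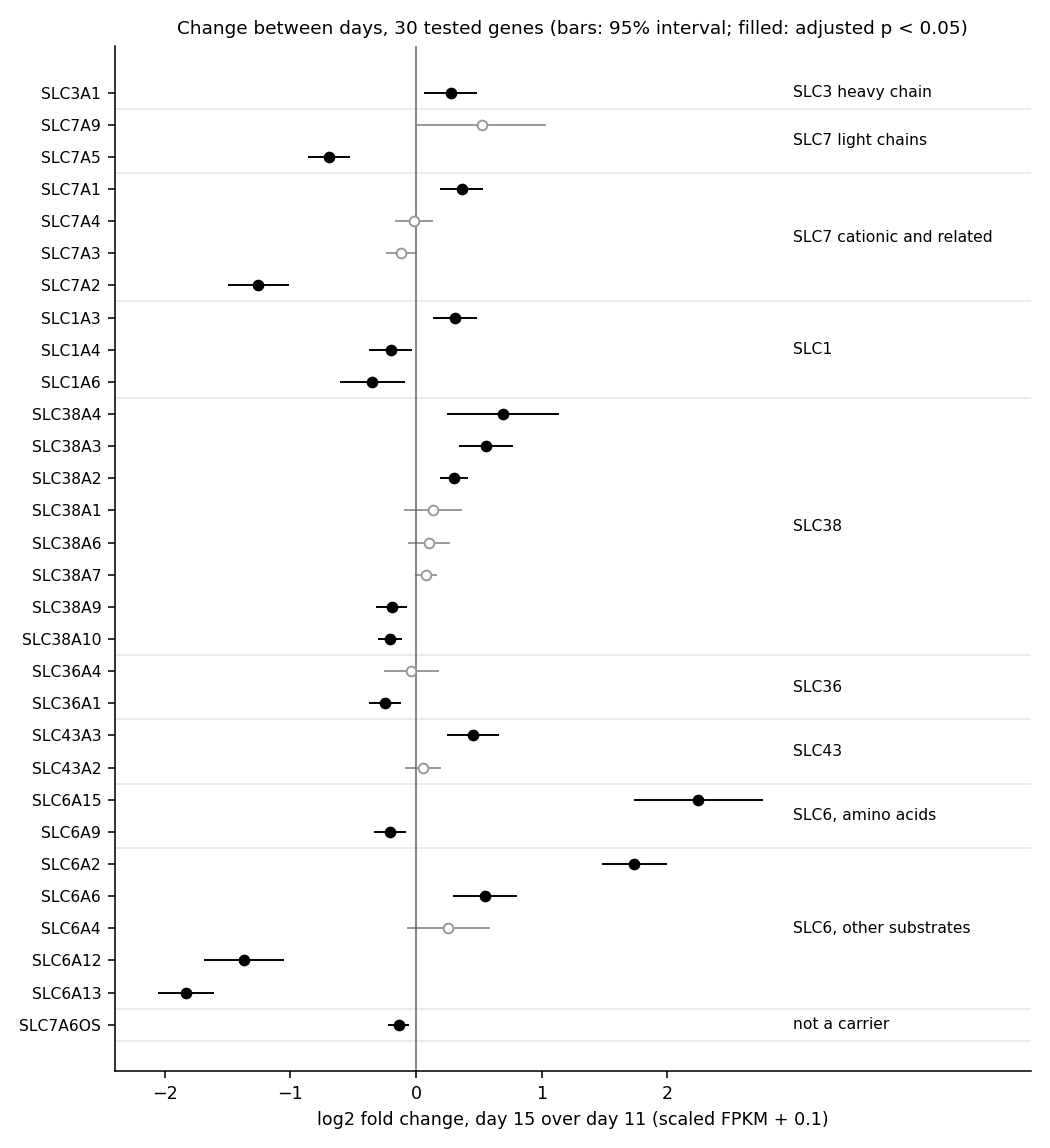
Log2 fold change of day 15 over day 11, averaged over the sexes, for 30 of the 31 tested genes grouped by family, with 95% intervals; filled points have an adjusted p below 0.05. The 21 filled points lie on both sides of 0 in every family with more than 2 tested genes.

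The highest level of all belonged to SLC38A2, the sodium-coupled carrier of small neutral amino acids such as alanine and glutamine, which cells induce when amino acids run short. It was the highest of the 45 genes in 35 of 40 libraries, and it alone made up 18.9% of their summed FPKM in day 15 males, 18.9% in day 15 females, 16.8% in day 11 males and 16.0% in day 11 females. The lowest, median and highest levels of SLC38A2 were 82.6, 96.6 and 106.4 FPKM in day 15 males and 67.5, 99.5 and 123 FPKM in day 15 females. In day 11 males they were 62.1, 83.9 and 96.1 FPKM, and in day 11 females 52.9, 80.8 and 95.6 FPKM. The days overlapped in both sexes, with 6 of 10 day 15 males and 8 of 10 day 15 females above the highest day 11 library of their sex. SLC38A2 rose by a log2 fold change of 0.30 ± 0.06 (1.23-fold, adjusted p = 9.9e-06).

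Next in level came SLC6A6, SLC7A5, SLC43A3, SLC43A2 and SLC38A10, with group means of 39.5 to 72.1 FPKM. Their order by mean level differed between the days: SLC7A5 ranked 5 in both sexes at day 15 and 2 in both at day 11, whereas SLC43A3 ranked 3 at day 15 and 6 at day 11. FPKM rests on the length of the transcript. The length the authors used could not be settled from the values for 9 of the 45 genes, among them SLC6A6, SLC43A3, SLC38A10, SLC1A3, SLC38A7, SLC6A2, SLC6A9 and SLC7A2. Their level beside that of other genes carries that doubt, but their change between libraries does not.

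Among the heavy chains, SLC3A1 could be examined. It pairs with SLC7A9 in the kidney and gut to take up cystine and dibasic amino acids. SLC3A1 had lowest, median and highest levels of 1.61, 2.03 and 2.36 FPKM in day 15 males, 1.15, 2.39 and 2.78 FPKM in day 15 females, 0.859, 1.47 and 2.63 FPKM in day 11 males and 1.34, 1.98 and 2.62 FPKM in day 11 females. The groups overlapped widely. It rose by 0.28 ± 0.11 on the log2 scale (1.21-fold, adjusted p = 0.0226), and the call was lost when only the day 11 libraries numbered 2 to 20 were kept (0.25). Within a sex, SLC3A1 was called in males (0.38, adjusted p = 0.0351) and not in females (0.18, adjusted p = 0.3495).

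Its light chain SLC7A9 lay much lower. It had medians of 0.355 FPKM in day 15 males, 0.607 FPKM in day 15 females, 0.279 FPKM in day 11 males and 0.305 FPKM in day 11 females. Single libraries ran between 0.0181 and 1.19 FPKM, which corresponds to 1 to 93 reads. The change between days was not called (log2 fold change 0.52 ± 0.25, adjusted p = 0.0722). The ratio of SLC3A1 to SLC7A9 in FPKM had medians of 5.79 in day 15 males, 3.24 in day 15 females, 5.88 in day 11 males and 6.12 in day 11 females. It varied within every group, up to 134 in the day 11 male with the lowest SLC7A9. Of 9 markers of kidney or gut absorptive epithelium, 7 stayed below 0.5 FPKM in every library, CUBN, SLC34A1, LRP2, UMOD, PAX2 and FABP2 among them. However, 1 of the 9 passed the filter for testing and was not called between the days. The 9 summed to 1.24 to 3.19 FPKM in day 15 males and 1.31 to 2.73 FPKM in day 15 females. At day 11 the sums were 1.34 to 2.98 FPKM in males and 1.27 to 3.26 FPKM in females.

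SLC7A5, the light chain that carries large neutral amino acids such as leucine and tryptophan, fell. This gene lies on chromosome 11 (17954812 to 17987235, minus strand, GRCg6a; ENSGALG00000005845). It had lowest, median and highest levels of 26.7, 42.5 and 52.6 FPKM in day 15 males and 29.4, 40.3 and 57.6 FPKM in day 15 females. The day 11 levels were 49.6, 68.2 and 89.4 FPKM in males and 54.6, 68.0 and 85.0 FPKM in females. In each sex 8 of 10 day 15 libraries lay below the lowest day 11 library, and the other 2 overlapped. Its log2 fold change was -0.69 ± 0.08 (0.618-fold, adjusted p = 2.82e-09), and it was -0.70 in males and -0.69 in females. Under every alternative tried it stayed between -0.78 and -0.63. SLC7A5 needs the heavy chain SLC3A2, which was not analysed here.

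Of the light chains examined, SLC7A11 and SLC7A10 were near the limit of detection. SLC7A6, SLC7A7 and SLC7A8 were not analysed here. SLC7A11, the cystine and glutamate exchanger that feeds glutathione synthesis, had 0 to 10 reads per library and 0 in 14 libraries. SLC7A10, a carrier of small neutral amino acids, had 1 to 20 reads. Neither was tested.

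The cationic carriers SLC7A1 and SLC7A2, both of which take up arginine, lysine and ornithine, moved in opposite directions. SLC7A1, the broadly expressed form, had lowest, median and highest levels of 4.06, 6.76 and 8.21 FPKM in day 15 males, 4.16, 6.77 and 8.27 FPKM in day 15 females, 3.41, 5.36 and 7.49 FPKM in day 11 males and 4.07, 5.21 and 7.13 FPKM in day 11 females. In each sex 9 of 10 day 15 libraries lay above the day 11 median, but only 3 lay above the highest day 11 library. SLC7A1 rose by 0.36 ± 0.09 on the log2 scale (1.29-fold, adjusted p = 0.000383).

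This rise depended on which day 11 embryos were used. SLC7A1 had a median of 5.77 FPKM in the day 11 libraries numbered 22 to 48 and 4.10 FPKM in those numbered 2 to 20. Against the libraries numbered 22 to 48 alone the change was 0.18 and was not called. Levels by number, here and below, are FPKM before scaling. Scaling divided the libraries numbered 22 to 48 by 1.015 to 1.073 and those numbered 2 to 20 by 0.921 to 1.001. Levels before scaling are therefore shifted upwards in the libraries numbered 22 to 48, while the fold changes are on the scaled values.

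SLC7A2, a form known from liver and activated macrophages, was lower at day 15. The gene lies on chromosome 4 (63027358 to 63067114, minus strand; ENSGALG00000013627). SLC7A2 had lowest, median and highest levels of 0.444, 0.587 and 1.23 FPKM in day 15 males, 0.356, 0.503 and 0.730 FPKM in day 15 females, 0.924, 1.67 and 2.56 FPKM in day 11 males and 0.914, 1.54 and 2.24 FPKM in day 11 females. All 10 day 15 females lay below every day 11 female, and 8 of 10 day 15 males lay below every day 11 male. On the log2 scale the change was -1.26 ± 0.12 (0.419-fold, adjusted p = 1.05e-11), and -0.68 with a pseudocount of 1. Of 6 leukocyte markers 5 also fell, as did 3 of 5 tested liver or yolk sac markers. CSF1R, the macrophage growth factor receptor, averaged 6.71 FPKM at day 15 and 18.7 FPKM at day 11 (log2 fold change -1.44 ± 0.10), and TIMD4, a macrophage receptor, 0.563 FPKM and 3.96 FPKM (-2.63 ± 0.20). The summed leukocyte markers, which CD74 dominates, ranged over 52.1 to 100.5 FPKM in day 15 males, 38.7 to 95.9 FPKM in day 15 females, 57.7 to 117.9 FPKM in day 11 males and 64.6 to 110.9 FPKM in day 11 females. Of the liver or yolk sac markers, APOA1, the main protein of high-density lipoprotein, averaged 176 FPKM at day 15 and 470 FPKM at day 11 (log2 fold change -1.54 ± 0.21), while RBP4 rose and ALB was not called. Their summed level ranged over 79.1 to 274 FPKM in day 15 males, 72.9 to 829 FPKM in day 15 females, 280 to 928 FPKM in day 11 males and 204 to 772 FPKM in day 11 females, and VTG2 and AHSG were below 0.5 FPKM in every library. The part of either marker list in the fall of SLC7A2 was not tested.

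The other cationic family genes were not called. SLC7A3, a cationic carrier best known from brain and early embryos, was present in every library, with group medians of 20.3 FPKM in day 15 males, 18.2 FPKM in day 15 females, 23.8 FPKM in day 11 males and 21.3 FPKM in day 11 females. Its log2 fold change was -0.12 ± 0.06 (adjusted p = 0.0902), and it was called without scaling (-0.15) and without day 11 male embryo 2 (-0.14). On the same strand it shares 489 exonic bases with SNX12, and reads from that stretch cannot be told apart. SLC7A4, a relative with no settled substrate, had a change of -0.02 ± 0.08 (adjusted p = 0.867). SLC7A14 had 0 reads in 36 of 40 libraries.

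Among the SLC1 genes examined, SLC1A3 had the highest level in FPKM, with the doubt about its length given above. It takes up glutamate and aspartate, in the brain mainly into glia. SLC1A3 had lowest, median and highest levels of 10.01, 14.3 and 16.7 FPKM in day 15 males, 6.30, 13.3 and 17.1 FPKM in day 15 females, 10.5, 11.9 and 13.9 FPKM in day 11 males and 7.40, 9.99 and 12.3 FPKM in day 11 females. The days overlapped in both sexes, and 6 of 10 day 15 libraries of each sex lay above the highest day 11 library. It rose by 0.31 ± 0.09 on the log2 scale (1.24-fold, adjusted p = 0.002). The change was not called in males (0.20 ± 0.12, adjusted p = 0.18) and was called in females (0.42 ± 0.12, adjusted p = 0.00426), but the difference between these changes was itself not called (adjusted p = 0.9999). The glial marker SOX10 was below 0.5 FPKM in every library. It does not stand for every kind of glia, and the cell type that expresses SLC1A3 in the membrane was not tested.

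SLC1A4 and SLC1A6 were called lower at day 15 with the sexes averaged, but neither was called within a sex. The adjusted p was 0.111 in males and 0.2465 in females for SLC1A4, and 0.0802 and 0.167 for SLC1A6. SLC1A4, which exchanges alanine, serine and cysteine, had medians of 4.55 FPKM in day 15 males, 4.82 FPKM in day 15 females, 5.62 FPKM in day 11 males and 5.48 FPKM in day 11 females (log2 fold change -0.20 ± 0.08, adjusted p = 0.0382). It had a median of 6.47 FPKM in day 11 libraries numbered 22 to 48 and 4.71 FPKM in those numbered 2 to 20. Against the first of these the change was -0.35 and called, and against the second it was -0.04 and not called. The call was also lost when no filter was applied (-0.20).

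SLC1A6, a glutamate carrier known from the cerebellum, had lowest, median and highest levels of 0.814, 1.80 and 2.38 FPKM in day 15 males, 0.884, 1.89 and 2.47 FPKM in day 15 females, 1.10, 2.27 and 3.23 FPKM in day 11 males and 1.32, 2.02 and 3.23 FPKM in day 11 females. The groups overlapped over most of their range. Its change of -0.35 ± 0.13 (adjusted p = 0.0193) was not called against the day 11 libraries numbered 2 to 20 (-0.33). SLC1A2, the main glutamate carrier of the forebrain, had 6 to 131 reads per library and was not tested, and SLC1A7, a retinal glutamate carrier, had 0 to 5.

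Of the 10 SLC38 genes, 8 were tested: 3 rose (SLC38A2, SLC38A3 and SLC38A4), 2 fell (SLC38A9 and SLC38A10) and 3 were not called (SLC38A1, SLC38A6 and SLC38A7). The 3 that rose encode carriers of the plasma membrane, but so does SLC38A1, which was not called. SLC38A3, a glutamine carrier known from liver and kidney, had lowest, median and highest levels of 3.03, 3.83 and 5.96 FPKM in day 15 males, 2.91, 3.78 and 5.58 FPKM in day 15 females, 1.19, 2.79 and 3.84 FPKM in day 11 males and 2.18, 2.79 and 4.07 FPKM in day 11 females. Every day 15 library lay above the day 11 median of its sex. Its log2 fold change was 0.56 ± 0.11 (1.47-fold, adjusted p = 1.74e-05), and it was called in males (0.69) and in females (0.43). The call in females was lost against the day 11 libraries numbered 22 to 48.

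SLC38A4, a carrier of neutral and cationic amino acids known from liver and placenta, was low in all groups. It had lowest, median and highest levels of 0.146, 0.692 and 2.61 FPKM in day 15 males, 0.289, 0.521 and 0.963 FPKM in day 15 females, 0.0202, 0.217 and 0.468 FPKM in day 11 males and 0.166, 0.420 and 0.800 FPKM in day 11 females. Day 15 males spread most widely, and 4 of the 10 lay within the day 11 male range. The averaged change was 0.69 ± 0.22 (1.62-fold, adjusted p = 0.00685), with 1.14 ± 0.31 in males (adjusted p = 0.00271) and 0.25 ± 0.31 in females (adjusted p = 0.545). The difference between the sexes in this change was 0.89 ± 0.44 and was not called (adjusted p = 0.9999). Against the day 11 libraries numbered 22 to 48 the averaged change was not called (0.54). With a pseudocount of 1 it was 0.27.

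SLC38A9 and SLC38A10 fell by small amounts. SLC38A9 is a lysosomal carrier that senses arginine for the growth kinase complex mTORC1. Its medians were 4.40 FPKM in day 15 males, 3.44 FPKM in day 15 females, 5.38 FPKM in day 11 males and 3.85 FPKM in day 11 females, and its change was -0.19 ± 0.06 (adjusted p = 0.00648). Against day 11 libraries numbered 2 to 20 it was -0.05 and not called, and against those numbered 22 to 48 it was -0.34 and called. Within a sex, SLC38A9 was called between the days in males (-0.28, adjusted p = 0.00782) and not in females (-0.11, adjusted p = 0.3175).

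SLC38A10, a less well characterised carrier of the same family, had lowest, median and highest levels of 28.7, 40.1 and 48.2 FPKM in day 15 males, 30.2, 40.2 and 46.6 FPKM in day 15 females, 37.3, 48.5 and 54.8 FPKM in day 11 males and 40.1, 46.2 and 51.4 FPKM in day 11 females. It fell by 0.20 on the log2 scale (SE 0.05, adjusted p = 0.000302). Against the day 11 libraries numbered 2 to 20 the change was -0.13, just short of a call.

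The SLC38 genes that were not called included 2 that were well expressed. SLC38A1, a glutamine carrier of neurons and placenta, had a median of 20.5 FPKM in day 15 males, 22.7 FPKM in day 15 females, 20.9 FPKM in day 11 males and 20.9 FPKM in day 11 females (log2 fold change 0.14 ± 0.11, adjusted p = 0.301). Its day 11 libraries separated by number, with 20.4 to 32.4 FPKM in those numbered 22 to 48 (median 26.7) and 9.85 to 19.0 FPKM in those numbered 2 to 20 (median 14.2). Against the first of these SLC38A1 was called lower at day 15 (-0.22), and against the second it was called higher (0.54), so its direction depends on which day 11 embryos are used. For SLC38A7, a lysosomal glutamine carrier, the change was 0.08 ± 0.04 (adjusted p = 0.103). It shares 998 exonic bases with GOT2 on the same strand, and GOT2, the mitochondrial aspartate aminotransferase, fell by 0.34 on the log2 scale, and how the counting assigned reads of the shared stretch is not known. For SLC38A6, a relative with less well settled substrates, it was 0.10 ± 0.08 (adjusted p = 0.289). Before scaling, SLC38A6 also separated by number at day 11, with 9.19 to 12.7 FPKM in libraries numbered 22 to 48 and 6.54 to 9.04 FPKM in those numbered 2 to 20. Its change was -0.08 and not called against the first, and 0.30 and called against the second. After scaling, the number ranges overlapped for SLC38A6 but not for SLC38A1. The share of all genes that separate by number was not computed. SLC38A8 and SLC38A11 had at most 11 and 46 reads in a library and were not tested.

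SLC38A1, SLC38A2 and SLC38A4 lie together on chromosome 1, all on the minus strand (SLC38A1 at 31057372 to 31082708, SLC38A2 at 31106674 to 31121733 and SLC38A4 at 31222996 to 31253936). No annotated gene lies between SLC38A1 and SLC38A2, which are 23.96 kb apart, and 2 lie between SLC38A2 and SLC38A4. SLC38A2 and SLC38A4 were called higher at day 15, and SLC38A1, with a median above 20 FPKM in every group, was not called over all day 11 embryos. Across the 10 embryos of a group, r between SLC38A1 and SLC38A2 was 0.49 in day 15 males, 0.60 in day 15 females, 0.17 in day 11 males and 0.81 in day 11 females. Spearman's rho was 0.49, 0.66, 0.05 and 0.65 in the same order of groups. None passed adjustment over the 16 correlations computed for 4 pairs of genes (permutation tests, adjusted p 0.073 to 0.843 for r and 0.323 to 1.0 for rho). The lowest permutation p belonged to r in day 11 females (p = 0.00456). There r was 0.45 without the 2 embryos farthest from the group median of SLC38A1, a step that also narrows the range of that gene.

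SLC36A1 is a proton-coupled carrier that exports small amino acids from lysosomes or takes them up at the cell surface. It had lowest, median and highest levels of 4.42, 5.29 and 6.20 FPKM in day 15 males, 5.23, 5.90 and 7.90 FPKM in day 15 females, 5.34, 6.64 and 8.21 FPKM in day 11 males and 6.13, 7.02 and 8.87 FPKM in day 11 females. Day 15 libraries were lower on average but overlapped with day 11 in both sexes. The change was -0.25 ± 0.06 (0.843-fold, adjusted p = 0.00114), and it ranged from -0.16 against day 11 libraries numbered 22 to 48 to -0.39 against those numbered 2 to 20. Within a sex, SLC36A1 was called in males (-0.28, adjusted p = 0.0105) and not in females (-0.21, adjusted p = 0.054). SLC36A4, described as a carrier of proline and tryptophan that works without protons, was not called between the days (-0.04 ± 0.11, adjusted p = 0.781).

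In SLC43, SLC43A3 rose and SLC43A2 was not called. SLC43A3 is grouped with the amino acid facilitators by sequence, although the human protein is known as a carrier of purine nucleobases. It had lowest, median and highest levels of 29.9, 57.9 and 93.2 FPKM in day 15 males, 36.5, 51.5 and 75.1 FPKM in day 15 females, 34.0, 38.01 and 46.5 FPKM in day 11 males and 27.7, 39.1 and 54.2 FPKM in day 11 females. Day 15 males spread over a wider range than day 11 males: 7 of 10 lay above every day 11 male and 2 below all of them. SLC43A3 rose by 0.45 ± 0.10 on the log2 scale (1.37-fold, adjusted p = 0.000224), and the change was 0.45 in males and 0.46 in females. SLC43A2, a facilitator of branched-chain amino acids and methionine, had medians of 44.9 FPKM in day 15 males, 47.4 FPKM in day 15 females, 45.4 FPKM in day 11 males and 44.5 FPKM in day 11 females. Its change of 0.06 ± 0.07 was not called (adjusted p = 0.519, 95% interval -0.09 to 0.20).

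Of the 8 SLC6 genes whose main substrates are amino acids, only SLC6A15 and SLC6A9 passed the filter. SLC6A15, a sodium-coupled carrier of branched-chain amino acids, methionine and proline that is known mostly from brain, had the largest increase of all 31 tested genes. It lies on chromosome 1 (41676490 to 41708448, minus strand; ENSGALG00000010992). Its lowest, median and highest levels were 3.21, 12.3 and 29.1 FPKM in day 15 males and 1.71, 6.45 and 19.8 FPKM in day 15 females. Those at day 11 were 0.735, 1.63 and 2.84 FPKM in males and 0.475, 2.01 and 2.80 FPKM in females. All 10 day 15 males lay above every day 11 male. Among day 15 females 8 of 10 lay above every day 11 female, and the lowest was embryo 83, with 1.71 FPKM. The log2 fold change was 2.25 ± 0.25 (4.76-fold, adjusted p = 5.05e-10).

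The increase of SLC6A15 was 6.15-fold in males (log2 fold change 2.62 ± 0.36, adjusted p = 8.76e-08) and 3.68-fold in females (1.88 ± 0.36, adjusted p = 3.53e-05). The difference between these changes was 0.74 ± 0.51 and was not called (adjusted p = 0.9999). By mean level the gene ranked 12 of the 45 in day 15 males and 15 in day 15 females, and 22 in day 11 males and 24 in day 11 females. Over the alternatives tried, the averaged log2 fold change stayed between 1.80 and 2.64.

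SLC6A9, the glycine carrier of glia and red cell precursors, fell slightly. It had lowest, median and highest levels of 11.0, 13.4 and 17.4 FPKM in day 15 males, 10.3, 13.5 and 17.7 FPKM in day 15 females, 13.3, 15.2 and 20.5 FPKM in day 11 males and 14.2, 16.2 and 21.5 FPKM in day 11 females. The groups overlapped. The change was -0.21 ± 0.06 (adjusted p = 0.00459), and against day 11 libraries numbered 22 to 48 it was not called (-0.16). It was called in females (-0.24, adjusted p = 0.0221) and not in males (-0.17, adjusted p = 0.118). Of 5 tested red cell markers, SLC4A1 rose (log2 fold change 0.47 ± 0.10) and 4 were not called.

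Of the 6 tested SLC6 carriers of other substrates, 2 rose (SLC6A2 and SLC6A6), 2 fell (SLC6A13 and SLC6A12) and 2 were not called. SLC6A2, which takes noradrenaline back into sympathetic nerve endings, was higher at day 15. It lies on chromosome 11 (3571368 to 3634461, minus strand; ENSGALG00000003560). Its lowest, median and highest levels were 3.69, 5.59 and 7.74 FPKM in day 15 males and 1.90, 4.16 and 6.53 FPKM in day 15 females. The day 11 levels were 1.22, 1.56 and 3.03 FPKM in males and 0.762, 1.05 and 2.07 FPKM in females. All day 15 males lay above all day 11 males. Among females 9 of 10 did so in FPKM, with embryo 83 at 1.90 FPKM below the highest day 11 female, and all 10 did so after scaling between libraries. Its log2 fold change was 1.74 ± 0.13 (3.34-fold, adjusted p = 4.91e-15), with 1.72 in males and 1.76 in females.

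Neuronal markers did not rise with SLC6A2. PRPH, a filament of peripheral neurons, averaged 1.54 FPKM at day 15 and 5.68 FPKM at day 11 (log2 fold change -1.85 ± 0.16, adjusted p = 7.63e-13). STMN2, a protein of growing axons, averaged 2.57 FPKM and 20.7 FPKM (-3.37 ± 0.37, adjusted p = 3.37e-10). ELAVL4 and TUBB3 were not called, and the glial marker SOX10 was below 0.5 FPKM in every library. The cell type in which SLC6A2 is expressed in the membrane was not tested.

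**Figure D3:**
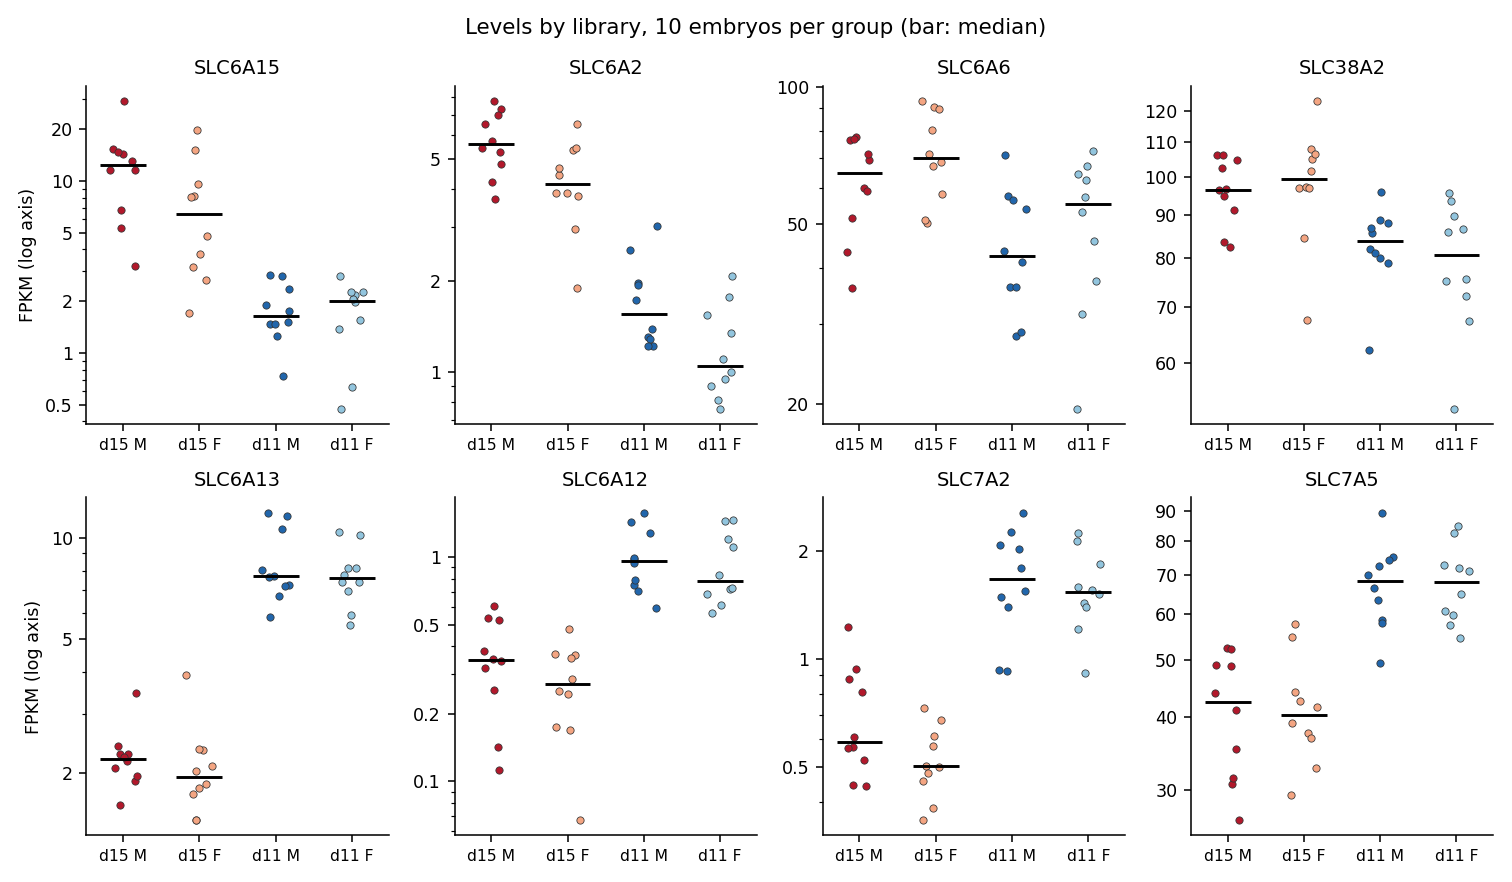
Level of 8 genes in each library (points; 10 embryos per group) in FPKM on log axes, with the median of each group as a bar; d15 and d11 stand for day 15 and day 11, M and F for male and female. SLC6A15, SLC6A2, SLC6A6 and SLC38A2 (upper row) were higher at day 15 and SLC6A13, SLC6A12, SLC7A2 and SLC7A5 (lower row) were lower; SLC6A13 shows no overlap between the days in either sex, whereas SLC6A6 overlaps over most of its range.

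SLC6A13 and SLC6A12 are adjacent genes, and both were lower at day 15. SLC6A13 carries GABA, betaine and taurine and is known from liver, kidney and the brain's coverings, and SLC6A12 carries betaine and GABA and is induced by high salt in the kidney. They lie on chromosome 1 on the minus strand, SLC6A12 at 60151819 to 60178280 (ENSGALG00000019290) and SLC6A13 at 60190170 to 60217228 (ENSGALG00000012985), 11.9 kb apart with no annotated gene between them. SLC6A13 had lowest, median and highest levels of 1.61, 2.20 and 3.46 FPKM in day 15 males and 1.45, 1.94 and 3.92 FPKM in day 15 females. Those at day 11 were 5.81, 7.69 and 11.9 FPKM in males and 5.52, 7.60 and 10.5 FPKM in females. Every day 15 library lay below every day 11 library, in both sexes. The log2 fold change was -1.83 ± 0.11 (0.281-fold, adjusted p = 1.03e-17), with -1.83 in males and -1.84 in females.

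SLC6A12 was scarcer, with 5 to 108 reads per library. In FPKM, its lowest, median and highest levels were 0.112, 0.349 and 0.607 FPKM in day 15 males, 0.0671, 0.270 and 0.478 FPKM in day 15 females, 0.595, 0.960 and 1.58 FPKM in day 11 males and 0.561, 0.784 and 1.47 FPKM in day 11 females. All day 15 females lay below all day 11 females, and 9 of 10 day 15 males lay below all day 11 males. On the log2 scale the change was -1.37 ± 0.16 (0.388-fold, adjusted p = 9.27e-10), and -0.56 with a pseudocount of 1. Within groups the pair did not vary together in a way that passed adjustment: r was 0.28 in day 15 males, 0.54 in day 15 females, 0.15 in day 11 males and -0.18 in day 11 females (permutation tests, adjusted p 0.474 to 0.843). Spearman's rho was 0.36, 0.59, 0.07 and -0.37 in the same order of groups (adjusted p 0.323 to 1.0). Without the 2 embryos farthest from the group median of SLC6A13, r was -0.16, 0.95, -0.12 and 0.27.

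SLC6A6, the carrier of taurine and beta-alanine, was the second most highly expressed of the 45 genes by mean level. It lies on chromosome 12 (11318269 to 11407020, plus strand; ENSGALG00000006425). Its lowest, median and highest levels were 36.01, 64.6 and 77.6 FPKM in day 15 males, 50.1, 69.9 and 93.3 FPKM in day 15 females, 28.2, 42.3 and 70.9 FPKM in day 11 males and 19.5, 55.2 and 72.4 FPKM in day 11 females. In each sex 4 of 10 day 15 libraries lay above the highest day 11 library. It rose by 0.55 ± 0.12 on the log2 scale (1.46-fold, adjusted p = 0.00023).

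The day 11 embryos themselves differed in SLC6A6. The lowest, median and highest of its levels were 43.4, 57.6 and 72.4 FPKM in the 11 libraries numbered 22 to 48 and 19.5, 36.2 and 53.0 FPKM in the 9 numbered 2 to 20. Against the libraries numbered 22 to 48 the change with day was 0.23 and was not called, and against those numbered 2 to 20 it was 0.92 and called. CSAD, an enzyme of taurine synthesis, was not called (log2 fold change -0.14 ± 0.08, adjusted p = 0.106).

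SLC6A4, which takes up serotonin, was not called between days. It had medians of 2.01 FPKM in day 15 males, 1.83 FPKM in day 15 females, 1.30 FPKM in day 11 males and 1.65 FPKM in day 11 females (log2 fold change 0.26 ± 0.16, adjusted p = 0.176). Against the day 11 libraries numbered 22 to 48 (median 2.39 FPKM) the change was -0.07 and not called, and against those numbered 2 to 20 (median 1.21 FPKM) it was 0.63 and called. SLC7A6OS, the gene that is not a carrier, averaged 10.2 FPKM in day 15 males, 9.73 FPKM in day 15 females, 11.2 FPKM in day 11 males and 11.3 FPKM in day 11 females. Its change was -0.14 ± 0.04 (adjusted p = 0.0042), which was not called against the day 11 libraries numbered 22 to 48 (-0.05). It was called in females (-0.18, adjusted p = 0.0102) and not in males (-0.09, adjusted p = 0.191).

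Outside the filter lay 14 genes. SLC6A7, a brain carrier of proline, came closest, with medians of 0.370 FPKM in day 15 males, 0.183 FPKM in day 15 females, 0.302 FPKM in day 11 males and 0.179 FPKM in day 11 females, and 3 to 62 reads per library. SLC1A2, SLC7A10 and SLC38A11 were the others with more than 15 reads in some library. The remaining 10 had 0 reads in at least 10 libraries and never more than 15: SLC38A8, SLC7A11, SLC1A7, SLC6A19, SLC6A18, SLC6A11, SLC6A17, SLC6A20, SLC6A5 and SLC7A14. SLC6A19, SLC6A18 and SLC6A20 are the neutral amino acid and proline carriers of the gut and kidney brush border, and SLC6A5 and SLC6A17 are carriers of neurons. A library with 0 reads still allows up to 3 reads at this depth, counting error only, so their absence is not shown.

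Between the sexes, 4 of the 31 tested genes were called when the days were averaged, 2 higher and 2 lower in males, beside 4.84% of all genes tested (3.4% higher and 1.44% lower). At day 15, 2 of 31 were called, 1 higher and 1 lower, beside 3.5% of all genes (2.59% higher and 0.913% lower). At day 11, 1 of 31 was called, higher in males, beside 3.48% (2.54% higher and 0.938% lower). SLC38A9 and SLC6A2 were higher in males, and SLC38A7 and SLC36A4 were lower. Male birds carry a pair of Z chromosomes and females a single Z with a W, and SLC1A3 and SLC38A9 are the 2 of the 45 genes on Z. Of the 676 Z genes tested, 65.4% were called higher in males, with a median log2 fold change of 0.48 (quartiles 0.21 and 0.71). Of genes on chromosomes other than Z or W, 0.454% were called higher and 0.908% lower.

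SLC38A9, at 16883916 to 16926017 on Z (minus strand; ENSGALG00000014712), was higher in males at both days. Its lowest, median and highest levels were 3.25, 4.40 and 5.27 FPKM in day 15 males, against 2.86, 3.44 and 4.12 FPKM in day 15 females. At day 11 they were 3.95, 5.38 and 6.78 FPKM in males, against 2.95, 3.85 and 4.84 FPKM in females. The sexes overlapped at each day. The log2 fold change of male over female was 0.39 ± 0.06 (1.31-fold, adjusted p = 7.07e-06), with 0.31 at day 15 (adjusted p = 0.0363) and 0.47 at day 11 (adjusted p = 0.000141). It lay within the middle range of Z genes. The day 15 call was lost when the deposited FPKM were not scaled between libraries.

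SLC1A3, at 11170515 to 11234911 on Z (plus strand; ENSGALG00000003582), was not called between the sexes. Its averaged difference of 0.17 ± 0.09 (adjusted p = 0.393) lay below the lower quartile of Z genes. It was 0.06 at day 15 (adjusted p = 0.955) and 0.28 at day 11 (adjusted p = 0.372).

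SLC6A2, on chromosome 11, was also higher in males. The levels given above had medians of 5.59 FPKM in day 15 males against 4.16 FPKM in day 15 females, and of 1.56 FPKM in day 11 males against 1.05 FPKM in day 11 females. The log2 fold change was 0.46 ± 0.13 (1.38-fold, adjusted p = 0.019). The differences within a day were of like size (0.45 at day 15 and 0.48 at day 11) and were not called alone. With only the day 11 libraries numbered 22 to 48 the averaged difference was not called (0.36).

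SLC36A4 and SLC38A7 were lower in males. SLC36A4, on chromosome 1 (187334925 to 187443112), had lowest, median and highest levels of 0.560, 0.793 and 1.67 FPKM in day 15 males, against 1.02, 1.31 and 1.94 FPKM in day 15 females. At day 11 they were 0.603, 1.16 and 1.53 FPKM in males, against 0.963, 1.18 and 1.69 FPKM in females. The averaged difference was -0.37 ± 0.11 (0.772-fold, adjusted p = 0.028), with -0.51 at day 15 (adjusted p = 0.0481) and -0.24 at day 11 (adjusted p = 0.747). The averaged call was lost without scaling (-0.37), with day 11 numbers 22 to 48 (-0.31) and with numbers 2 to 20 (-0.42), and the day 15 call under 8 of the 14 alternatives.

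SLC38A7, on chromosome 11 (1468224 to 1475359), had lowest, median and highest levels of 14.7, 18.8 and 23.8 FPKM in day 15 males, against 17.5, 20.2 and 23.9 FPKM in day 15 females. At day 11 they were 16.2, 17.5 and 19.9 FPKM in males, against 16.3, 20.3 and 23.7 FPKM in females. The sexes overlapped at both days, and the difference was -0.16 ± 0.04 (0.893-fold, adjusted p = 0.014). It was not called without scaling (-0.15) or with only the day 11 libraries numbered 2 to 20 (-0.11).

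**Figure D4:**
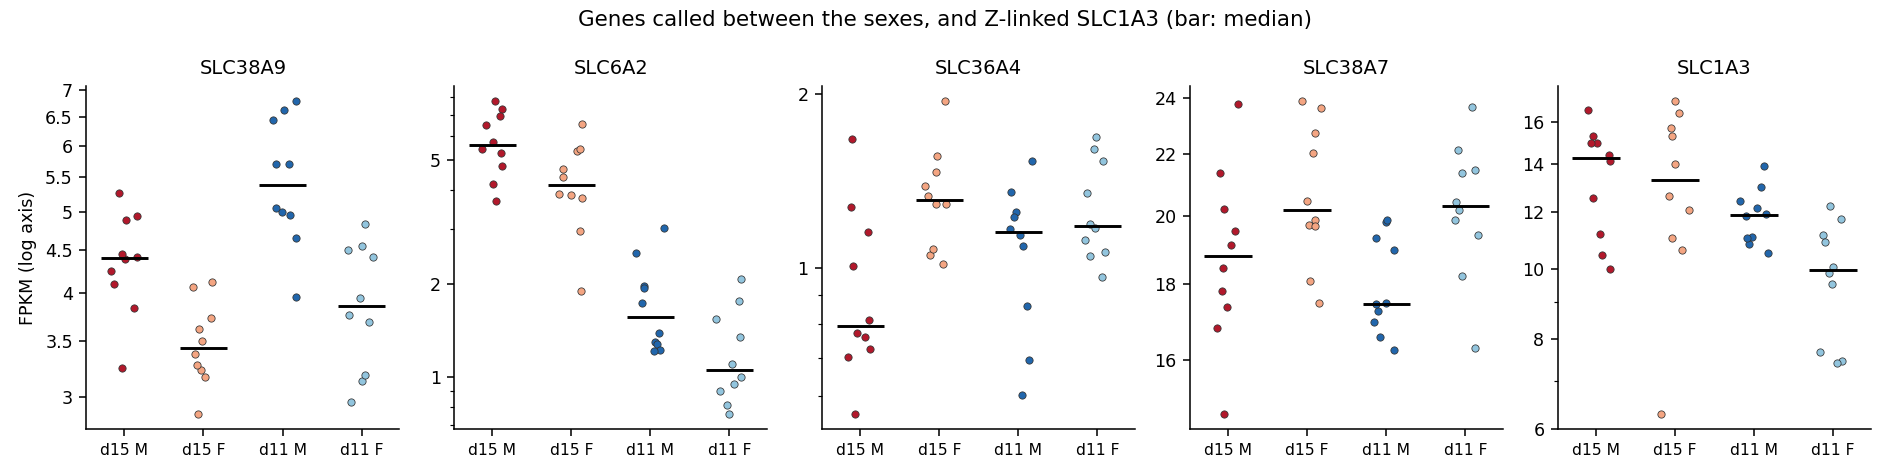
Level in each library (points; bars are medians of 10 embryos) in FPKM on log axes for the 4 genes called between the sexes and for SLC1A3; d15 and d11 stand for day 15 and day 11, M and F for male and female. SLC38A9 has medians of 4.40 and 5.38 FPKM in males, against 3.44 and 3.85 FPKM in females, and the sexes overlap in all 5 genes.

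Amino acids taken up by these carriers are used for protein synthesis, made into other compounds and sensed by signalling pathways, and genes of those pathways were set beside the carriers. Of all genes tested, 60.1% were called between the days (30.3% higher and 29.8% lower). The counts of each list below stand beside that share. Of 19 cytosolic tRNA synthetases, which load amino acids onto tRNA, 16 fell and 1 rose between the days (median log2 fold change -0.20). FARSB averaged 17.9 FPKM at day 15 and 23.2 FPKM at day 11 (-0.34 ± 0.04), TARS 23.0 FPKM and 29.7 FPKM (-0.33 ± 0.04) and IARS1 16.1 FPKM and 20.8 FPKM (-0.33 ± 0.04). The exception was KARS, the lysine enzyme (0.15 ± 0.04).

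Genes of amino acid synthesis and interconversion mostly fell as well: 11 of 16 tested fell and 4 rose, with a median log2 fold change of -0.33. GATM, the first enzyme of creatine synthesis, averaged 0.416 FPKM at day 15 and 1.68 FPKM at day 11 (-1.89 ± 0.17). GLUL, which makes glutamine from glutamate, averaged 13.8 FPKM and 26.8 FPKM (-0.92 ± 0.09), and SHMT1, which interconverts serine and glycine, 4.41 FPKM and 7.30 FPKM (-0.69 ± 0.06).

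The response to amino acid shortage runs through the kinase EIF2AK4 and the transcription factor ATF4, which in mammals activate SLC38A2, SLC7A5, SLC7A11 and ASNS among others. Of 15 names listed for that response, 10 were found and tested: 7 rose, 1 fell and 2 were not called (median 0.14). Most rises were small, with log2 fold changes of 0.10 for ATF4, 0.09 for CEBPG and 0.19 for each of EIF2AK4, EIF2AK3 and SESN2. The largest change of the list was that of STC2, which was lower at day 15 but not called (-0.98 ± 0.45, adjusted p = 0.0576). CEBPB averaged 183 FPKM at day 15 and 114.0 FPKM at day 11 (0.73 ± 0.10), and ATF3 6.38 FPKM and 4.88 FPKM (0.40 ± 0.06). ASNS, asparagine synthetase, was the one called lower (27.1 FPKM and 32.1 FPKM, -0.21 ± 0.04). SLC38A2 rose while SLC7A5 and ASNS fell, and SLC7A11 did not pass the filter. The part of ATF4 in these changes was not tested.

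Of 21 genes that link amino acids to mTORC1, 5 rose, 3 fell and 13 were not called (median 0.04), beside 60.1% of all genes called. SESN1, a stress-induced brake on the pathway, averaged 59.3 FPKM at day 15 and 27.6 FPKM at day 11 (1.11 ± 0.07). FNIP2 and RRAGD, which act at the lysosome, rose by 0.42 ± 0.09 and 0.29 ± 0.04. In branched-chain amino acid breakdown 1 of 5 genes rose, BCKDHB (0.16 ± 0.06), and none fell. Of 6 tested genes of glutathione synthesis, its control and thiol reduction, 3 rose and 1 fell (median 0.08). GSS and GSR rose by 0.22 ± 0.04 and 0.21 ± 0.06. The gene that fell was TXNRD1, a thioredoxin reductase and not a gene of glutathione synthesis. It fell by 0.61 on the log2 scale (SE 0.09).

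Carriers of amino acids and peptides outside the 7 families were also measured. Of 13 tested, 4 rose, 5 fell and 4 were not called (median -0.01), beside 30.3% higher and 29.8% lower over all genes. SLC15A1, which takes up di- and tripeptides, averaged 22.9 FPKM at day 15 and 4.88 FPKM at day 11 (2.22 ± 0.19, adjusted p = 5.47e-13), a change of about the size of that of SLC6A15. SLC25A29, the mitochondrial carrier of basic amino acids, averaged 72.4 FPKM and 30.4 FPKM (1.27 ± 0.09, adjusted p = 3.05e-15). SLC25A39, a mitochondrial carrier of glutathione, fell by 0.31 on the log2 scale (SE 0.05). SLC16A10, a facilitator of aromatic amino acids, was not called (0.01 ± 0.08, adjusted p = 0.927).

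**Figure D5:**
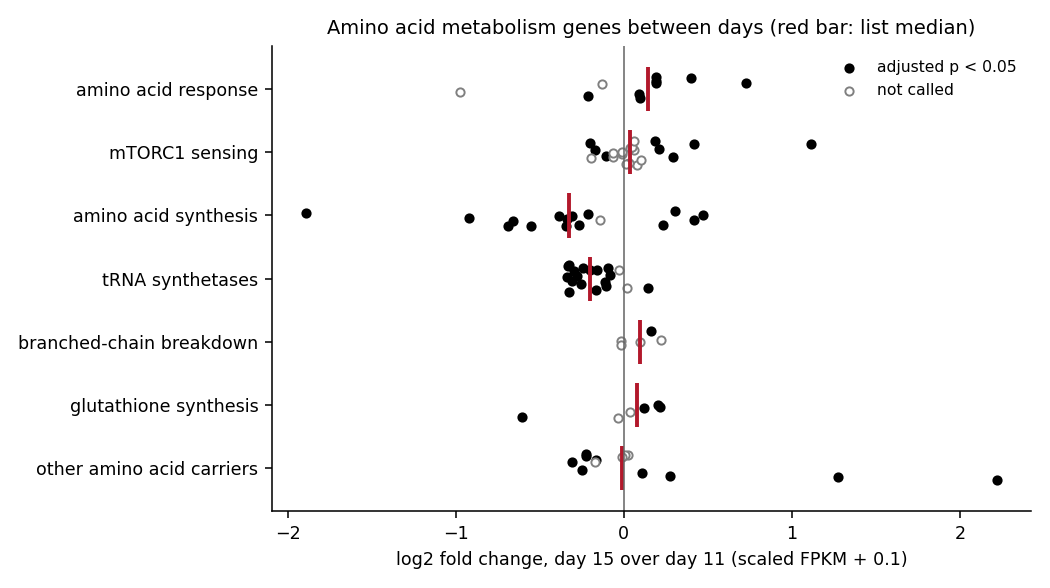
Log2 fold change of day 15 over day 11, averaged over the sexes, for each tested gene of 7 lists of amino acid metabolism and sensing; filled points have an adjusted p below 0.05 and the red bar is the median of the list. The tRNA synthetases centre on -0.20 and the synthesis genes on -0.33, and SLC15A1 (2.22) and GATM (-1.89) are the outermost points.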

How the data were processed

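The authors deposited 1 table of 26152 gene models for the 40 libraries. Although its name speaks of raw counts, the deposited values are FPKM: low values of 15718 single-transcript genes (under 200 reads) were whole multiples of 1 read, within 0.01, in 100% of cases. These steps give the depth of 28.3 to 49.2 M reads (median 35.4). FPKM and RPKM cannot be told apart here. The submitters' processing notes name HISAT2, HTSeq and the build GRCg6a. No version, strand setting or batch is stated. How reads from the shared stretches of overlapping genes were counted is not known. Names and coordinates come from the annotation deposited with the values. All columns were matched to a sample by name. The columns taken as day 15 female embryo 102 and day 15 male embryo 100 give only the last digits of these numbers. No other sample of that day and sex ends in them. Among the libraries, 0 pairs were identical, and the highest pairwise correlation was 0.986.

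Libraries were scaled by trimmed means of log ratios without weights (trimming 30% of ratios and 5% of levels at each end), and log2(scaled FPKM + 0.1) was tested. The filter of 0.5 FPKM in 10 libraries left 15880 genes. In limma 3.58.1 (R 4.3.3; statmod 1.5.0), 1 mean per group was fitted with trend and robust options, with Benjamini-Hochberg adjustment over all genes tested and a threshold of 0.05. Correlations within groups used 100000 permutations (SciPy 1.17.1). The fit was tried on simulated data of 15880 genes, with 25 genes changed between days at each size and sign. Of log2 changes of 0.3 it called 10 rises and 11 falls, and of 0.5, 19 and 20. Of changes of 1 it called 23 and 22, and of 2 all 25 each way. Among unchanged genes 10 were called. Far fewer genes changed there than were called in these data, so these shares need not hold here. Alternatives changed the scaling, pseudocount, filter, moderation, weights, libraries and embryo numbers.

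The genes examined, the 7 pathway lists and the 11 marker lists were chosen with earlier results of these data known. Described with values were the 8 largest called increases and decreases between days, the 6 highest levels, genes called between sexes, the heavy chain, the genes nearest the filter and up to 3 called genes of each pathway list. KARS, GOT2, CSAD, SLC16A10, CSF1R, APOA1, RBP4, ALB, SLC4A1, ATF4, CEBPG, EIF2AK4, EIF2AK3, SESN2 and STC2 were named after their values were seen. The planned ratio of SLC3A2 to its light chains and a promoter motif search were not run. The values of 1 of the 45 genes and of 3 markers are not reported here, though counts include them. Of marker lists not given in the report, endothelium had 4 higher and 1 lower of 6 tested, stroma 1 higher and 3 lower of 6, skeletal muscle 1 higher of 3, and pancreatic acinar cells 2 lower of 2.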

Additional observations from a re-analysis of the deposited data

Results flagged for a closer look

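Libraries were examined for each of the 31 tested genes in each group of 10, on the scaled log2 scale, and a library was listed when its distance to the nearest other library, as a share of the group's range, exceeded Dixon's 95% critical value. Values below are in unscaled FPKM, on which the gap can be narrower. This gave 11 of 124 sets, and chance alone lists about 1 in 20. Day 15 female embryo 83 accounted for 3 of them: SLC1A3 at 6.30 FPKM (the next lowest had 10.6), SLC3A1 at 1.15 FPKM (next 1.86) and SLC6A13 at 3.92 FPKM, the highest of its group (next 2.35). In day 15 male embryo 81, SLC38A1 had 10.8 FPKM (next 18.8) and SLC38A10 had 28.7 FPKM (next 38.5), both the lowest of the group. In day 11 male embryo 2, SLC38A2 had 62.1 FPKM (next 78.9) and SLC1A6 had 1.10 FPKM (next 1.94), again the lowest. The other 4 were the lowest of their group too: SLC1A4 at 2.91 FPKM in 1 other day 15 female (next 4.10), SLC38A4 at 0.0202 FPKM in day 11 male embryo 14 (next 0.167), SLC43A2 at 30.9 FPKM in day 11 female embryo 11 (next 39.3) and SLC38A7 at 16.3 FPKM in day 11 female embryo 20 (next 18.2). Embryo 83 also had the highest sum of pancreatic acinar markers, 826 FPKM. Their relation to these values was not tested.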

How the results depend on the processing

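Of 471 comparisons of 34 fold changes with their reported value over 14 alternatives, 443 kept their direction and side of the threshold, 17 lost the call, 5 gained one and 6 turned round. Against day 11 libraries numbered 22 to 48, SLC38A1 turned to -0.22 and was called, and SLC38A6 (-0.082), SLC6A4 (-0.075), SLC43A2 (-0.041) and SLC7A4 (0.023) turned without a call. SLC36A4 turned to 0.10 against those numbered 2 to 20, not called. Calls gained were those of SLC38A1, SLC38A6 and SLC6A4 against numbers 2 to 20 and of SLC7A3 without scaling or without day 11 male embryo 2. The report names every lost call between days averaged over sexes. For these genes the adjusted p ranged over the alternatives from 0.0032 to 0.0862 (SLC38A4), 1.05e-06 to 0.0747 (SLC6A6), 3.14e-05 to 0.0887 (SLC7A1), 0.0053 to 0.117 (SLC1A6), 0.000915 to 0.0556 (SLC6A9), 3.65e-06 to 0.05 (SLC38A10), 0.00649 to 0.0818 (SLC3A1), 0.00169 to 0.754 (SLC1A4), 4.64e-05 to 0.587 (SLC38A9), 7.36e-06 to 0.337 (SLC7A6OS), 4.54e-05 to 0.571 (SLC38A1), 0.00911 to 0.529 (SLC38A6), 0.00144 to 0.751 (SLC6A4) and 0.0322 to 0.309 (SLC7A3), and between the sexes from 0.00317 to 0.354 (SLC38A7), 0.00826 to 0.313 (SLC6A2) and 0.0176 to 0.293 (SLC36A4). The number called between days was 17 to 22 averaged, 13 to 17 in males and 13 to 16 in females. Genes left out by the strictest filter (1 FPKM in 20 libraries) included SLC38A4, SLC6A12 and SLC7A2, which were called between days, and SLC7A9, which was not. SLC7A9 was also left untested when only the day 11 libraries numbered 2 to 20 were kept. Without a filter SLC38A11 and SLC7A11 were also called. The number called between the sexes, averaged, was 2 without scaling (SLC36A4 and SLC38A7 lost), 2 with day 11 numbers 22 to 48 (SLC36A4 and SLC6A2 lost) and 2 with numbers 2 to 20 (SLC36A4 and SLC38A7 lost). At day 15 it was 0 without scaling, and 1 with a pseudocount of 1, without a filter, with the strictest filter, with numbers 2 to 20, and without day 15 female embryo 83, day 15 male embryo 81 or day 11 male embryo 2 (the last 2 alternatives were chosen after seeing the data), with SLC36A4 lost each time. At day 11 it was 2 with library weights, with SLC38A7 added. The cause was not tested. The interaction stayed at 0. No paired analysis was possible because no embryo number is shared between groups. Day cannot be told apart from embryo number, which runs from 2 to 48 at day 11 and from 52 upwards at day 15. Genes with few reads limit precision: SLC38A4 had 2 to 289 reads per library.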
